A study of Mus musculus with 16 samples.

Results

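Chemokines are small secreted or membrane-tethered proteins that direct the migration of leukocytes and other cells, and they act through G protein-coupled receptors of the Cxcr, Ccr, Cx3cr and Xcr classes. Atypical receptors of the Ackr class bind the same ligands without G protein signalling and remove or redistribute them. In skin, keratinocytes make several of these ligands, among them Cxcl14, Ccl27a and Ccl20, and the Cxcl12 receptor Cxcr4 is known from migrating and tumour cells.

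The family was taken as every gene of the array whose symbol begins with Cxcl, Ccl, Cx3cl, Xcl, Cxcr, Ccr, Cx3cr, Xcr or Ackr and goes on with a number and at most 1 letter. It held 53 of the 18194 genes measured, namely 33 ligands, 16 signalling receptors and 4 atypical receptors. Each gene was read from the probe set of highest mean among those annotated to it alone. A filter on dim genes, which asked for a signal above the array's 40th percentile in at least 2 of 16 arrays, was passed by 37 members (26 ligands, 7 signalling receptors and all 4 atypical receptors) out of 14286 genes. The other 16 members, 9 receptors and 7 ligands, had log2 signals between 3.05 and 5.85. A further 6 family symbols (Ccl19, Ccl21a, Ccl21b, Ccl21c, Ccl21d and Ccl27b) had only probe sets shared with other genes and were not counted as members.

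The study asked which genes change as tail epidermis cells of mice switch on SmoM2, an oncogenic form of the hedgehog transducer Smoothened that gives rise to basal cell carcinoma in mice, and what the loss of β-catenin alters in them. Cells were sorted by flow cytometry from mice of mixed strain background, and their RNA was measured on Affymetrix arrays. In K14CREER/Rosa-SmoM2-YFP mice, keratin 14 drives a tamoxifen-dependent Cre, so that tamoxifen switches on SmoM2 in basal keratinocytes. From these mice, SmoM2-positive cells of the interfollicular epidermis (IFE) were taken after tamoxifen, in 1 array at 3 days, 3 arrays each at 1 week and 4 weeks, and 2 arrays at 10 weeks. Cells with β-catenin loss (n = 2) were SmoM2-positive IFE cells taken at 4 weeks from K14CREER/Rosa-SmoM2-YFP mice that carried floxed β-catenin alleles as well. The IFE controls (n = 3) came from K14CREER/Rosa-SmoM2-YFP mice without tamoxifen. For the bulge, the stem cell region of the hair follicle, K19CREERT2/Rosa-SmoM2-YFP mice gave 1 array of SmoM2 cells at 4 weeks and 1 array labelled as an untreated control. All mice carried a Cre and the SmoM2 allele. Controls received no tamoxifen and were not sorted for SmoM2, so SmoM2, tamoxifen and sorting cannot be told apart. No group had lost β-catenin without SmoM2. Nothing in the labels ties each replicate to a mouse of its own, so the p-values rest on the spread among these arrays, which may be technical. The small number of arrays limits the precision.

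Values below are deposited log2 array signals, and differences are in log2 units with their standard error from limma. A difference was called when its adjusted p (Benjamini-Hochberg over 14286 genes) was under 0.05. The arrays carried the signal of basal keratinocytes: the mean log2 signal of 6 basal keratinocyte markers lay between 11.64 and 12.72 in all 16 arrays. Ctnnb1, which encodes β-catenin, had 12.76 and 12.93 in cells with β-catenin loss, against 13.65, 13.21 and 13.26 in SmoM2 cells at 4 weeks and 13.04, 12.76 and 12.77 in IFE controls. The loss arrays lay below the 4-week arrays and close to the controls, and the 3-day array was at 12.69. The position of its probes in the gene was not examined, so this signal does not check the deletion. Several arrays stood apart. The library labelled bulge control had Gli1, a hedgehog target, at 9.89, against 9.96 in bulge SmoM2 cells and 5.30 to 5.73 in the IFE controls, and its source label names SmoM2-positive cells. Among the 2 arrays of β-catenin loss, Gli1 was 7.22 in replicate 1 and 9.56 in replicate 2. IFE control replicate 3 had S100a8, a protein of neutrophils and stressed keratinocytes, at 10.66, against 6.53 and 6.78 in the other controls. In such bulk samples, fewer cells of a type and less RNA per cell cannot be told apart.

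Few members of the family were called, and a member that was not called is not thereby shown to be unchanged. At 10 weeks Cxcr4 rose and no member fell, 1 of 37, where 0.7% of the 14286 genes were called (0.567% higher and 0.133% lower). With β-catenin loss Cxcl1 rose, both against the IFE controls (1 of 37, where 0.371% of genes were called, 0.231% higher and 0.14% lower) and against SmoM2 cells at 4 weeks (1 of 37, where 2.23% of genes were called, 0.644% higher and 1.58% lower). At 4 weeks limma called 0 of 37 members, with 2 at an unadjusted p under 0.05, while 3.24% of genes were called, 2.44% higher and 0.798% lower. With replicate number as a block over all 14 IFE arrays, 873 genes were called in place of 463. They held 2 members, Cxcr4 higher and Ccl28 lower. The numbers were taken to pair only control, 1-week and 4-week arrays, so the block also held arrays outside those pairs. At 3 days and at 1 week limma called 0% of genes, and with the block 2 or 5 genes and 0 members at 1 week. At an unadjusted p under 0.05 there were 222 genes and 1 member at 3 days, and 677 genes and 1 member at 1 week. Between 4 weeks and 1 week, and between 10 weeks and 4 weeks, limma also called 0%. Their unadjusted counts were 688 genes and 1 member, and 893 genes and 2 members.

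These counts over all genes moved when single arrays were left out. At 4 weeks the 463 genes became 132, 13 and 49 without control replicates 1, 2 and 3. They became 139, 237 and 410 without 4-week replicates 1, 2 and 3. At 10 weeks the 100 genes became 45, 18 and 20 without control replicates 1, 2 and 3, and 0 and 1 without 10-week replicates 1 and 2. For β-catenin loss against control the 53 genes became 6, 9 and 1 without control replicates 1, 2 and 3, and 3 without loss replicate 1. Against 4 weeks the 318 genes became 2 without loss replicate 1 and 147 without 4-week replicate 1. The same count against 4 weeks was 229 and 247 without 4-week replicates 2 and 3. At 1 week 50 genes were called without 1-week replicate 3.

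Family medians are given beside those of all genes. The median difference of the members was −0.09 at 4 weeks and −0.10 at 10 weeks, beside medians over all genes of −0.05 and −0.06. At 4 weeks 10 of 37 members had higher values than in controls, where 44.3% of all genes did, and at 10 weeks 15 of 37 did, beside 42.8% of all genes. Against the controls, β-catenin loss had a family median of −0.17 beside −0.12 over all genes, and against SmoM2 cells at 4 weeks −0.07 beside −0.09. Centring each array on its median moved that last median over all genes to 0.08, and turned the split of calls from 92 higher and 226 lower to 198 higher and 137 lower. With median centring the 4-week calls were 316 higher and 181 lower, beside 349 and 114 without it, and with quantile normalization the calls of β-catenin loss against 4 weeks were 99 higher and 107 lower. At 3 days, in 1 array, 7 of 37 members were higher beside 53.1% of all genes, and the family median was −0.31, beside 0.02 over all genes. The comparisons share control arrays or 4-week arrays, so they are given side by side and not as repeats of each other.

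**Figure D1:**
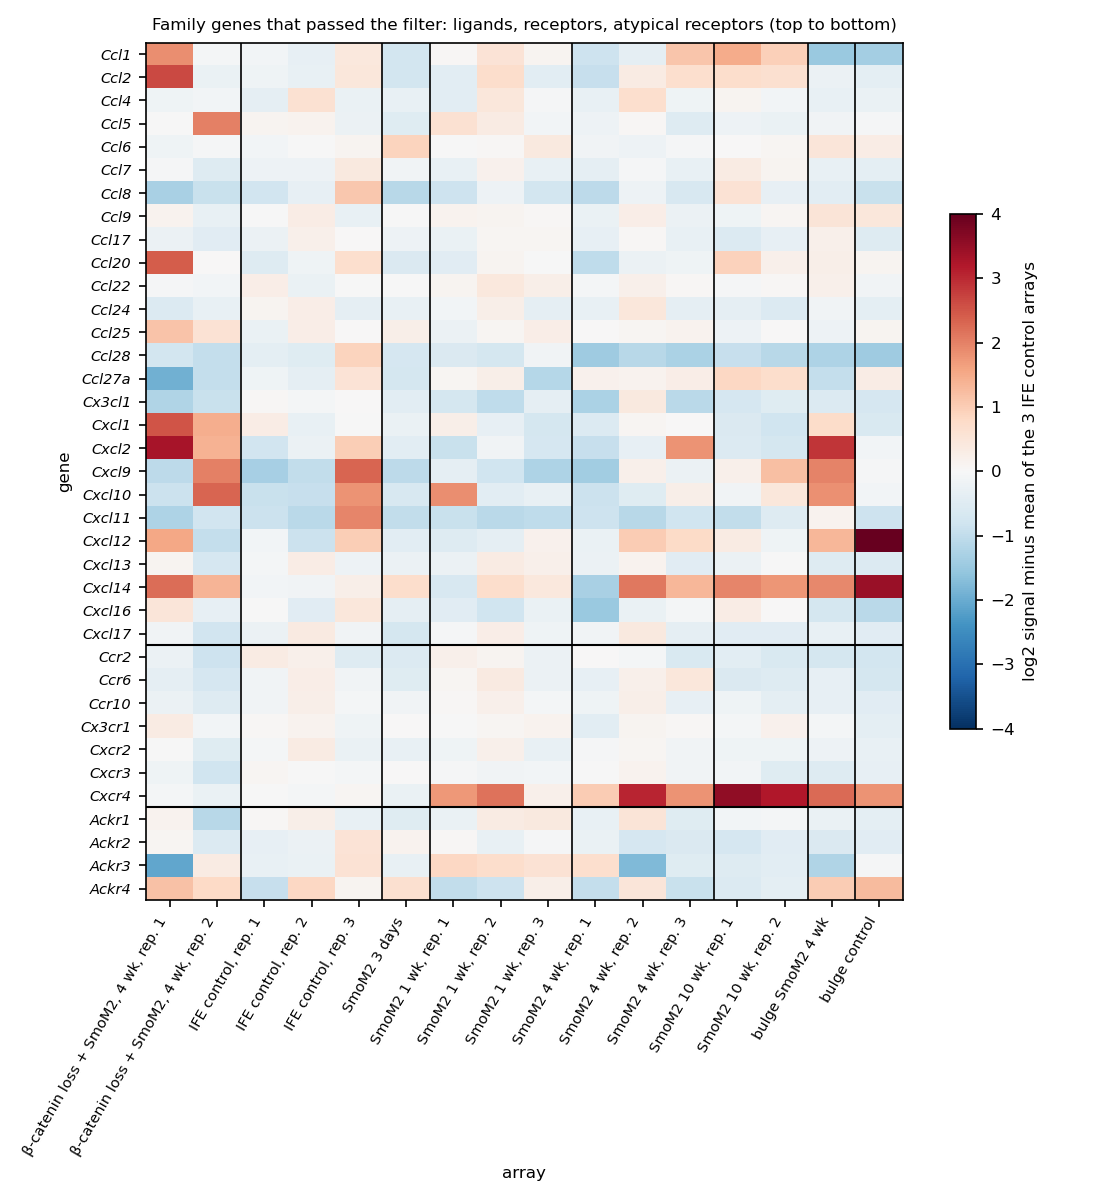
Heat map of the 37 family members that passed the filter (rows) in the 16 arrays (columns), with colour for the log2 signal minus that gene's mean in the 3 IFE controls. Cxcr4 was 3.38 above the controls on average at 10 weeks and Cxcl1 was 1.98 above them with β-catenin loss, while most rows stay pale.

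Cxcr4 is the signalling receptor of Cxcl12. Its signal was 4.09, 4.01 and 4.18 in the 3 IFE controls, 3.84 at 3 days, 5.84, 6.27 and 4.30 at 1 week, 5.12, 7.14 and 5.89 at 4 weeks, and 7.63 and 7.31 at 10 weeks. From 1 week on every SmoM2 array lay above every control, and replicate 3 at 1 week, at 4.30, lay closest to them. At 10 weeks Cxcr4 averaged 7.47 ± 0.22 (SD, n = 2), against 4.09 ± 0.09 in IFE controls (SD, n = 3). The difference of 3.38 ± 0.58 (limma adjusted p = 0.0274) passed. All 3 control signals lay below the 40th percentile of their arrays (4.88 to 4.99), so the control level is only a bound. Set against the mean of those percentiles, the mean 10-week signal was at least 5.85-fold higher. It held under all 12 changes of normalization, filter, probe set or model that were tried. It did not pass once any 1 array was left out, where the difference lay between 3.22 and 3.53 and the adjusted p between 0.0736 and 0.405.

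The differences at the earlier times did not pass. At 4 weeks Cxcr4 differed from control by 1.95 ± 0.52 (limma adjusted p = 0.0681; 95% interval 0.82 to 3.08), and with replicate number as a block by the same amount (adjusted p = 0.0474). Over 18 alternatives that adjusted p ranged from 0.042 to 0.192. At 1 week the difference was 1.37 ± 0.52 (adjusted p = 0.799), with an interval from 0.25 to 2.50. At 3 days it was −0.26 (interval −1.86 to 1.34). Cxcr4 was 1.42 ± 0.58 higher in value at 10 weeks than at 4 weeks (adjusted p = 0.794; interval 0.16 to 2.69), and both 10-week arrays lay above all 4-week arrays.

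In cells with β-catenin loss Cxcr4 had 4.02 and 3.83, against 5.12, 7.14 and 5.89 in SmoM2 cells at 4 weeks. Both values lay below all 3 of the 4-week arrays, 1 within the control range and 1 under it. The difference from 4 weeks was −2.12 ± 0.58 (limma adjusted p = 0.0774), which did not pass, with an interval from −3.39 to −0.86. Against the controls it was −0.17 ± 0.58 (interval −1.43 to 1.09). Gli1 differed from 4 weeks by −2.06 ± 0.60 in the same cells (adjusted p = 0.0995), and from control by 2.85 ± 0.60 (adjusted p = 0.0823).

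Markers of the bulge and outer root sheath did not all follow Cxcr4. The mean log2 signal of these 7 markers was 8.03 to 8.48 in controls, 9.15 to 10.28 at 1 week, 9.63 to 10.53 at 4 weeks, 10.25 to 10.34 at 10 weeks and 8.70 to 9.34 with β-catenin loss. Of the 7, 3 rose at 4 weeks and 3 at 10 weeks. At 10 weeks 5 of 7 had higher values than in controls. Krt15 had 11.81 and 11.57 at 10 weeks, against 12.90, 12.51 and 12.82 in controls. Cd34 had 4.04 and 3.69, against 3.80, 3.78 and 4.15. With β-catenin loss 4 of 7 had higher values than in controls, among them Sox9 at 9.91 and 10.00, against 7.72, 8.20 and 8.82. Leukocyte markers did not all run the same way. The 6 measured T cell markers averaged 4.69 to 4.70 at 10 weeks and 5.19 to 5.21 in controls, and Ptprc, the pan-leukocyte gene, had 3.90 and 3.88 at 10 weeks against 4.16, 4.39 and 5.01 in controls. Lck, the other gene of the T cell list, was not analysed here. The 7 Langerhans and dendritic cell markers averaged 6.95 to 7.02 at 10 weeks and 6.23 to 7.81 in controls. Of these 7, 3 had higher values at 10 weeks than in controls (median difference −0.36). Epcam was among the 3, with 12.06 and 11.79 at 10 weeks, against 8.68, 8.75 and 10.34 in controls. Cd207 lay below every control (5.34, 6.18 and 6.62) in both 10-week arrays. The 10 macrophage and neutrophil markers averaged 6.52 to 6.53 at 10 weeks and 5.32 to 6.48 in controls, with S100a8 at 13.04 and 12.40 at 10 weeks. Of the 8 tested markers of that list, 3 had higher values at 10 weeks (median difference −0.19), and Csf1r, the receptor of a macrophage growth factor, had 5.70 and 5.94 at 10 weeks, against 5.86, 6.95 and 7.66 in controls. The 7 melanocyte markers averaged 5.36 to 6.30 at 10 weeks, against 7.03 to 9.22 in controls, where 0 of 7 had higher values, the median difference was −2.33 and limma called 0 (lowest adjusted p = 0.125). With β-catenin loss they averaged 5.21 to 5.31. The part of the follicle, leukocyte and melanocyte markers in the Cxcr4 result was not tested.

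**Figure D2:**
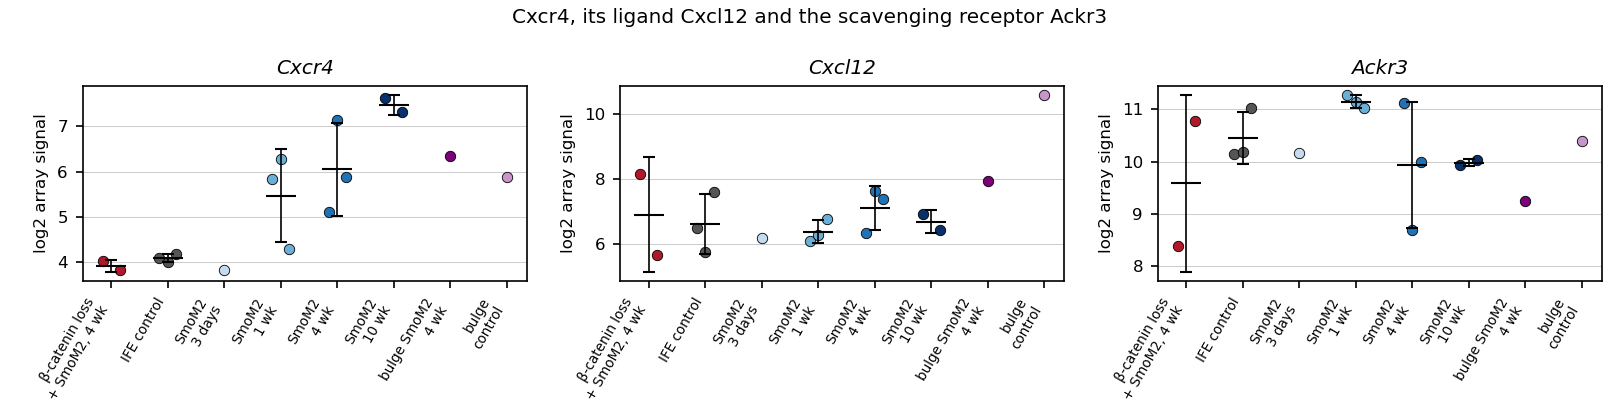
Log2 array signal (vertical axes) of Cxcr4, Cxcl12 and Ackr3 in each array of the 8 groups; points are arrays, horizontal bars the mean and error bars the SD where a group has more than 1 array. Cxcr4 averaged 7.47 in the 10-week arrays, 4.09 in the controls and 3.92 with β-catenin loss, while the 10-week arrays of Cxcl12 (6.93 and 6.42) lie within the range of the IFE controls (5.75 to 7.58).

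Cxcl12, the ligand of Cxcr4, was not called in any comparison. Its signal was 6.49, 5.75 and 7.58 in IFE controls, 6.18 at 3 days, 6.09, 6.26 and 6.76 at 1 week, 6.34, 7.61 and 7.38 at 4 weeks, and 6.93 and 6.42 at 10 weeks. The groups overlapped at each time, and the difference at 10 weeks was 0.07 ± 0.68 (limma adjusted p = 0.987; interval −1.42 to 1.56). With β-catenin loss it was 8.14 and 5.65, so the 2 arrays spanned the whole IFE range. Of the other Cxcl12 probe sets, 1 gave differences of 0.97 at 4 weeks and 0.50 at 10 weeks, and 1 gave −0.59 and −0.76.

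Ackr3, the atypical receptor that removes Cxcl12 and also binds Cxcl11, had 10.15, 10.18 and 11.04 in IFE controls, 10.17 at 3 days, 11.27, 11.14 and 11.02 at 1 week, 11.12, 8.69 and 9.99 at 4 weeks, and 9.93 and 10.02 at 10 weeks. The 3 arrays at 1 week lay close together, and those at 4 weeks spread widely. The difference between 4 weeks and 1 week was −1.21 ± 0.62 (limma adjusted p = 0.998). In cells with β-catenin loss Ackr3 was 8.38 and 10.78, which overlapped the 4-week arrays.

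The ligands that keratinocytes make without inflammation moved unevenly. Cxcl14, a ligand of resting epithelium, had 8.82, 8.80 and 9.18 in IFE controls, 9.64 at 3 days, 8.29, 9.64 and 9.35 at 1 week, 7.64, 11.03 and 10.26 at 4 weeks, and 10.87 and 10.70 at 10 weeks. Both 10-week arrays lay above all controls, while at 4 weeks replicate 1 lay below them and the other 2 above. The 10-week difference of 1.85 ± 0.76 did not pass (limma adjusted p = 0.381; interval 0.18 to 3.53), and the other Cxcl14 probe set differed by 0.86. With β-catenin loss Cxcl14 was 11.17 and 10.28, a difference from control of 1.79 ± 0.76 (adjusted p = 0.308; 0.48 by the other probe set). It did not separate from the 4-week arrays.

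Ccl28, an epithelial ligand of Ccr10, was lower in value at 4 weeks. It had 5.06, 5.37 and 5.21 at 4 weeks, against 6.08, 5.98 and 7.36 in IFE controls. All 4-week arrays lay below all controls, and control replicate 3 was the highest of the 16. The difference was −1.26 ± 0.32 (limma adjusted p = 0.0583) and did not pass, but it did with replicate number as a block (adjusted p = 0.0237), and over 18 alternatives the adjusted p ran from 0.0237 to 0.170. Without control replicate 3 the difference was −0.81 (adjusted p = 0.122). At 10 weeks Ccl28 had 5.56 and 5.36 (difference from control −1.01 ± 0.36, adjusted p = 0.263), and at 1 week 5.89, 5.78 and 6.32. With β-catenin loss it had 5.74 and 5.51. The other 2 probe sets of Ccl28 differed at 4 weeks by −0.09 and −0.28.

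Ccl27a, the keratinocyte ligand that draws skin-homing T cells through Ccr10, was lower in value with β-catenin loss. It had 4.71 and 5.68 there, against 6.80, 6.76 and 6.91 in SmoM2 cells at 4 weeks and 6.44, 6.26 and 7.18 in IFE controls. Both arrays lay below all arrays of these 2 groups. Ccl27a had 5.92 at 3 days and 6.70, 6.87 and 5.49 at 1 week, where replicate 3 lay below loss replicate 2. The difference of −1.62 ± 0.42 from 4 weeks (limma adjusted p = 0.0658; interval −2.54 to −0.71) and that of −1.43 ± 0.42 from control (adjusted p = 0.149) did not pass. At 10 weeks Ccl27a had 7.46 and 7.33, above every control. Ccl27a and Ccl27b are near-identical copies, so which of them gave this signal is uncertain. Of 2 probe sets that both genes share, 1 had 5.27 and 5.54 with β-catenin loss, against 6.56, 6.67 and 6.95 at 4 weeks, and the other had 9.46 and 8.17, against 7.91 to 11.29. Ccr10 itself, the receptor of Ccl27a and Ccl28, lay between 5.13 and 5.90 in all IFE arrays.

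Ackr4, the atypical receptor that clears Ccl19, Ccl21 and Ccl25, had 8.30 and 7.93 with β-catenin loss, against 6.20, 7.61 and 6.24 in SmoM2 cells at 4 weeks. Both arrays lay above the 4-week arrays, and 1 of 3 controls (6.20, 7.98 and 7.24) reached their level. The difference from 4 weeks was 1.43 ± 0.55 (limma adjusted p = 0.203). From control it was 0.97 ± 0.55 (adjusted p = 0.435), where another Ackr4 probe set had −0.63. Ccl25 had 7.10 and 6.53 with β-catenin loss, above the 5.68 to 6.21 of all other IFE arrays. Its differences of 0.80 ± 0.24 from 4 weeks (adjusted p = 0.105) and 0.87 ± 0.24 from control (adjusted p = 0.133) did not pass.

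**Figure D3:**
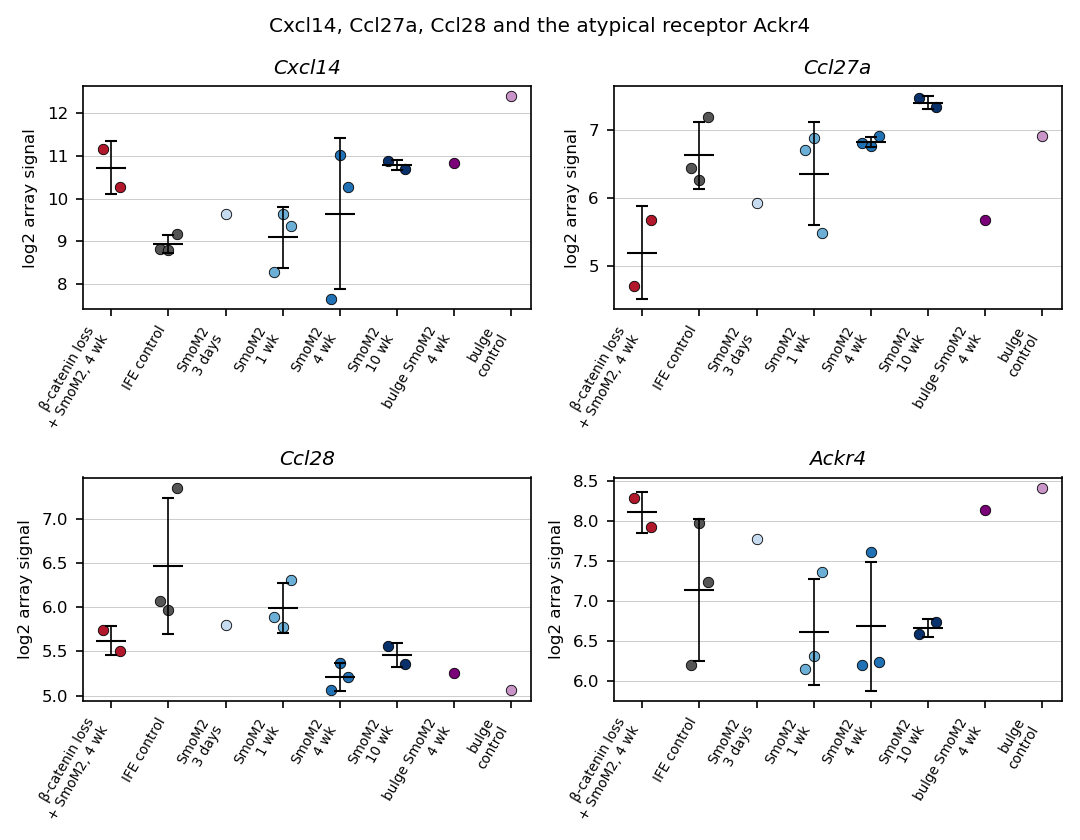
Log2 array signal (vertical axes) of Cxcl14, Ccl27a, Ccl28 and Ackr4 in each array of the 8 groups; points are arrays, horizontal bars the mean and error bars the SD where a group has more than 1 array. Ccl27a averaged 5.20 with β-catenin loss, 6.62 in controls and 6.82 at 4 weeks, and Ccl28 averaged 5.21 at 4 weeks against 6.47 in controls.

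Among the ligands that attract neutrophils, Cxcl1 rose with β-catenin loss. Cxcl1 and Cxcl2 act on the receptor Cxcr2, and their genes lie next to each other on mouse chromosome 5 (GRCm38.p6, RefSeq), Cxcl1 at 90891245 to 90893121 and Cxcl2 at 90903899 to 90905938. Transcription of both, and of Ccl20 on chromosome 1, is known to be induced by NF-kB. Their promoter windows, from 250 bases before to 50 bases after the start site on the plus strand, are shown because these 3 ligands had the largest rises in value of the family against 4 weeks. Capitals mark the NF-kB type motif GGGNNTTTCC on either strand, the one motif searched for. The windows are chr5:90890995-90891294 for Cxcl1, chr5:90903649-90903948 for Cxcl2 and chr1:83116516-83116815 for Ccl20, read from RefSeq's GRCm38.p6 table.
Cxcl1: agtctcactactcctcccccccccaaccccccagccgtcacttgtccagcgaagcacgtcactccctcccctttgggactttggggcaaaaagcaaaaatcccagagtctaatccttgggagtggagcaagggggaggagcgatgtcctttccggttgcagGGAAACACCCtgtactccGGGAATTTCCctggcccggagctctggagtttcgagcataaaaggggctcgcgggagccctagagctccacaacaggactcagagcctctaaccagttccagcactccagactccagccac
Cxcl2: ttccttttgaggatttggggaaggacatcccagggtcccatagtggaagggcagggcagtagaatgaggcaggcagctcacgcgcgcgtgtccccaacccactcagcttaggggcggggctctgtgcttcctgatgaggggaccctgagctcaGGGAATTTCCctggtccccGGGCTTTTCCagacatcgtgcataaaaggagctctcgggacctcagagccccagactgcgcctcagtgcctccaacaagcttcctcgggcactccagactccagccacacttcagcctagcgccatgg
Ccl20: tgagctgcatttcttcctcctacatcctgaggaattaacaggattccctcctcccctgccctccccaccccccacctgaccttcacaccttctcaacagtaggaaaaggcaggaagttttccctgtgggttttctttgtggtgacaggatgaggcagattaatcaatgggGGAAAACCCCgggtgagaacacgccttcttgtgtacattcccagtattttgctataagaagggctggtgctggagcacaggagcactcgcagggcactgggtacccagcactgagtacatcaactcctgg
The Cxcl1 window held the motif at 2 places, which began 89 and 71 bases before the start site, the Cxcl2 window at 2 places (97 and 78 bases before it) and the Ccl20 window at 1 place (80 bases before it). Of 32851 promoter windows of this length, 535 (1.63%) held it, and 6 of the 40 family genes matched to a window did, the others being Ccl9, Ccr3 and Cxcl3. A match of letters is a description and does not show binding.

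Cxcl1 had 10.56 and 9.50 with β-catenin loss, against 7.50, 8.11 and 8.07 in SmoM2 cells at 4 weeks and 8.35, 7.76 and 8.03 in IFE controls. Both arrays lay above all other IFE arrays, whose highest value was 8.35. Cxcl1 averaged 10.03 ± 0.75 (SD, n = 2) with β-catenin loss and 7.89 ± 0.34 at 4 weeks (SD, n = 3). The difference of 2.13 ± 0.36, a 4.39-fold higher signal, passed (limma adjusted p = 0.0204), and so did the difference of 1.98 ± 0.36 from control (adjusted p = 0.0448). The other 2 probe sets of Cxcl1 were higher than at 4 weeks by 3.33 and 0.78. In the latter the groups overlapped: loss replicate 2 had 7.87, below 4-week replicate 2 (8.08) and control replicate 2 (8.10). Without replicate 1 of the β-catenin loss arrays the difference from 4 weeks was 1.61 (adjusted p = 0.205) and that from control 1.45 (adjusted p = 0.314). The call against control was also lost without any 1 of the 3 controls, at differences of 2.13, 1.84 and 1.97. It was lost as well without the filter on dim genes (adjusted p = 0.0534), with the Cxcl1 probe set of highest variance (0.0796), with only the groups compared in the fit (0.0601) and with Y-linked signal as a covariate (0.0576). The call against 4 weeks was lost with only the groups compared (0.0846). Over the alternatives the adjusted p lay between 0.0118 and 0.205 against 4 weeks and between 0.0261 and 0.314 against control. In SmoM2 cells of the IFE with β-catenin intact no Cxcl1 value exceeded the highest control, with 7.77 at 3 days, 8.28, 7.73 and 7.33 at 1 week, and 7.46 and 7.25 at 10 weeks.

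Cxcl2 had 7.87 and 5.95 with β-catenin loss, against 3.64, 4.25 and 6.36 in SmoM2 cells at 4 weeks and 3.81, 4.34 and 5.56 in IFE controls. Both arrays lay above all controls, and replicate 3 at 4 weeks lay between them. Replicates 1 and 2 of the controls and of the 4-week arrays lay below the 40th percentile of their arrays. The sizes of the differences therefore depend on signals close to background. The differences of 2.16 ± 0.76 from 4 weeks (limma adjusted p = 0.166; interval 0.49 to 3.83) and 2.34 ± 0.76 from control (adjusted p = 0.19) did not pass. Without 4-week replicate 3 the difference from 4 weeks was 2.96 and passed (adjusted p = 0.0483), within a range of 0.044 to 0.683 over the alternatives. The neighbouring ligands Cxcl3, Cxcl5 and Cxcl15, named after their values were seen, did not pass the filter. Cxcl3 had 3.69 and 4.12 with β-catenin loss, against 3.06 to 3.21 at 4 weeks. Cxcl5 had 4.01 and 5.85 with β-catenin loss, against 3.28 to 3.48 at 4 weeks. Cxcl15, which lies between Cxcl3 and Cxcl1, had 3.84 and 3.92 with β-catenin loss, against 3.83 to 4.08 at 4 weeks. The receptor Cxcr2 lay between 4.60 and 5.42 in all IFE arrays.

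Ccl20 and Ccl2 were high in 1 of the 2 arrays of β-catenin loss. Ccl20, which draws Ccr6-bearing dendritic and T cells, had 8.80 and 6.37 with β-catenin loss, against 5.36, 6.13 and 6.20 in SmoM2 cells at 4 weeks. Its difference was 1.69 ± 0.59 (limma adjusted p = 0.164). Without replicate 1 of β-catenin loss it was 0.48, and without replicate 2 it was 2.90 and passed (adjusted p = 0.0218, within a range of 0.0218 to 0.771 over the alternatives). Ccl2, the ligand of Ccr2 on monocytes, had 8.36 and 5.45, against 4.79, 6.03 and 6.39 at 4 weeks. Its difference of 1.17 ± 0.72 (adjusted p = 0.451) turned to −0.28 without replicate 1. At 10 weeks Ccl20 had 7.30 and 6.55 and Ccl2 6.42 and 6.36, and neither difference from control passed. Ccr6 had 5.24 and 4.96 with β-catenin loss, against 5.29, 5.81 and 6.05 at 4 weeks (difference −0.62 ± 0.27, adjusted p = 0.264). It had 5.02 and 5.10 at 10 weeks.

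The markers of inflammatory cells varied beside these ligands. The mean of 10 macrophage and neutrophil markers was 6.02 to 6.57 with β-catenin loss, 4.97 to 6.76 at 4 weeks and 5.32 to 6.48 in controls. S100a8 within that list had 10.79 and 12.35 with β-catenin loss, against 5.01, 12.30 and 11.55 at 4 weeks, and Itgam, an integrin of neutrophils and macrophages, lay between 3.68 and 4.96 in all IFE arrays. The 7 Langerhans and dendritic cell markers averaged 5.92 and 7.17 with β-catenin loss, against 6.79 to 8.31 at 4 weeks. Replicate 1, with the highest Cxcl1, Cxcl2, Ccl20 and Ccl2, had the lowest Langerhans value and the lower Gli1. The part of these markers in the results was not tested.

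**Figure D4:**
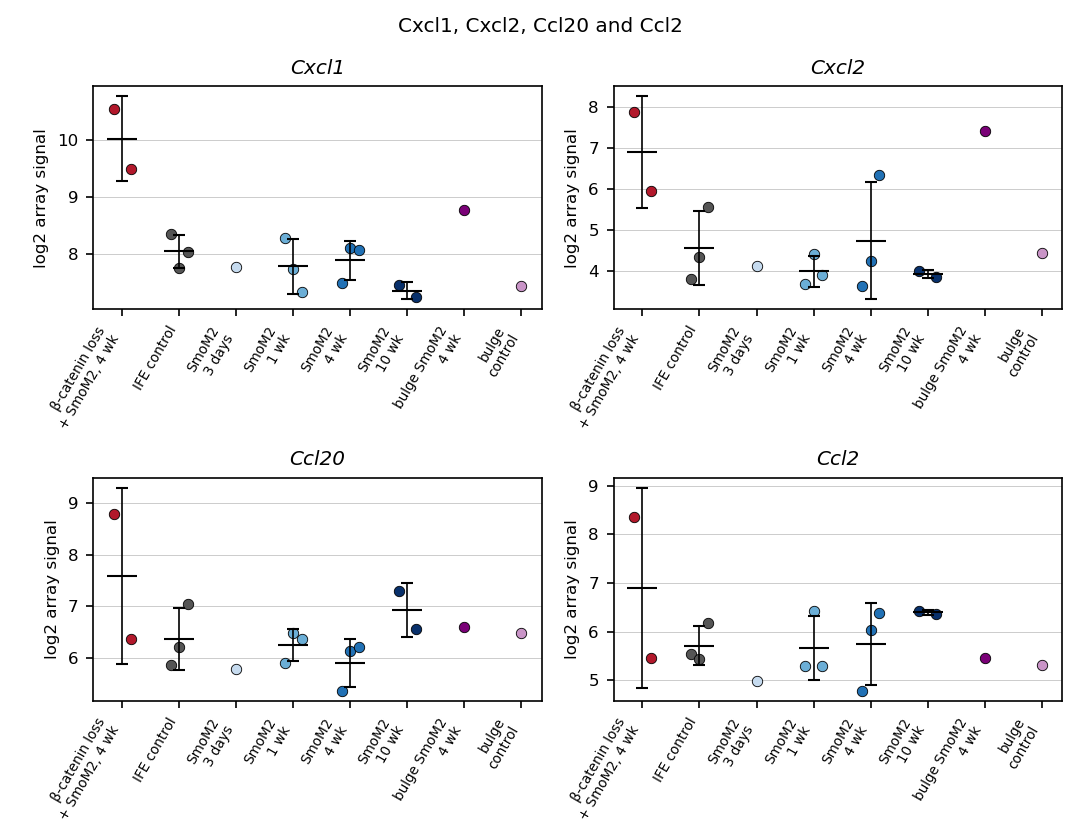
Log2 array signal (vertical axes) of Cxcl1, Cxcl2, Ccl20 and Ccl2 in each array of the 8 groups; points are arrays, horizontal bars the mean and error bars the SD where a group has more than 1 array. Both arrays of β-catenin loss are highest for Cxcl1 (10.56 and 9.50), while for Ccl20 and Ccl2 1 of them is high (8.80 and 8.36) and the other lies among the other groups.

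The ligands of Cxcr3, which interferon gamma induces, were high in single arrays. Cxcl9 had 4.79 and 7.87 with β-catenin loss, 4.46, 6.03 and 5.59 at 4 weeks, and 4.52, 4.84 and 8.16 in IFE controls. At 1 week it had 5.48, 5.03 and 4.62, at 10 weeks 6.04 and 7.04. Cxcl10 had 4.77 and 7.95 with β-catenin loss, 4.78, 5.15 and 5.86 at 4 weeks, and 4.74, 4.72 and 7.42 in IFE controls. At 1 week it had 7.48, 5.22 and 5.33, and at 10 weeks 5.48 and 6.09. Control replicate 3, β-catenin loss replicate 2 and, for Cxcl10, 1-week replicate 1 were the high arrays. Cxcl11 was at 7.23 in control replicate 3 and between 4.06 and 4.77 in the other IFE arrays.

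No difference of Cxcl9, Cxcl10 or Cxcl11 passed, and several rested on control replicate 3. Cxcl11 differed from control by −0.97 at 3 days, −1.01 at 1 week, −0.92 at 4 weeks and −0.75 at 10 weeks. Without control replicate 3 these became 0.00 at 3 days, −0.04 at 1 week, 0.05 at 4 weeks and 0.23 at 10 weeks. Cxcl9 at 1 week differed by −0.79 with that array and 0.36 without it. The Langerhans and dendritic cell markers averaged 7.81 in control replicate 3, against 6.23 and 6.93 in the other controls. The macrophage and neutrophil markers averaged 6.48 against 5.32 and 5.47. Within that list S100a8 had 10.66 against 6.53 and 6.78, and S100a9 had 9.82 against 4.87 and 5.18. In control replicate 3, Csf1r, Itgam, Tyrobp and Mrc1 also lay above both other controls. Adgre1 and Lyz2 lay below both in that array, and Cd14 and Fcer1g between them. Cd3e, Cd3d and Cd3g, which define T cells, had 5.68, 4.73 and 3.53 in that array, against 5.67 to 6.39, 4.44 to 5.22 and 3.47 to 4.26 over the 13 other IFE arrays. Ptprc had 5.01 in control replicate 3, against 4.16 and 4.39 in the other controls. The 6 measured T cell markers averaged 5.21 in it, against 5.20 and 5.19. In β-catenin loss replicate 2 the T cell markers averaged 5.17, against 4.51 in replicate 1. The Langerhans and dendritic cell markers averaged 7.17 against 5.92 there, and the macrophage and neutrophil markers 6.57 against 6.02. Of the latter list, S100a8, S100a9, Csf1r, Itgam, Cd14 and Tyrobp were higher in loss replicate 2, and Adgre1, Lyz2, Mrc1 and Fcer1g lower. The part of these markers in the Cxcl9, Cxcl10 and Cxcl11 values was not tested. Ccl5, a T cell and macrophage ligand, had 5.15 and 7.17 with β-catenin loss, and its replicate 2 was the highest of all arrays (4.63 to 5.76 elsewhere). The receptor Cxcr3 lay between 4.44 and 5.37 in the IFE arrays.

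**Figure D5:**
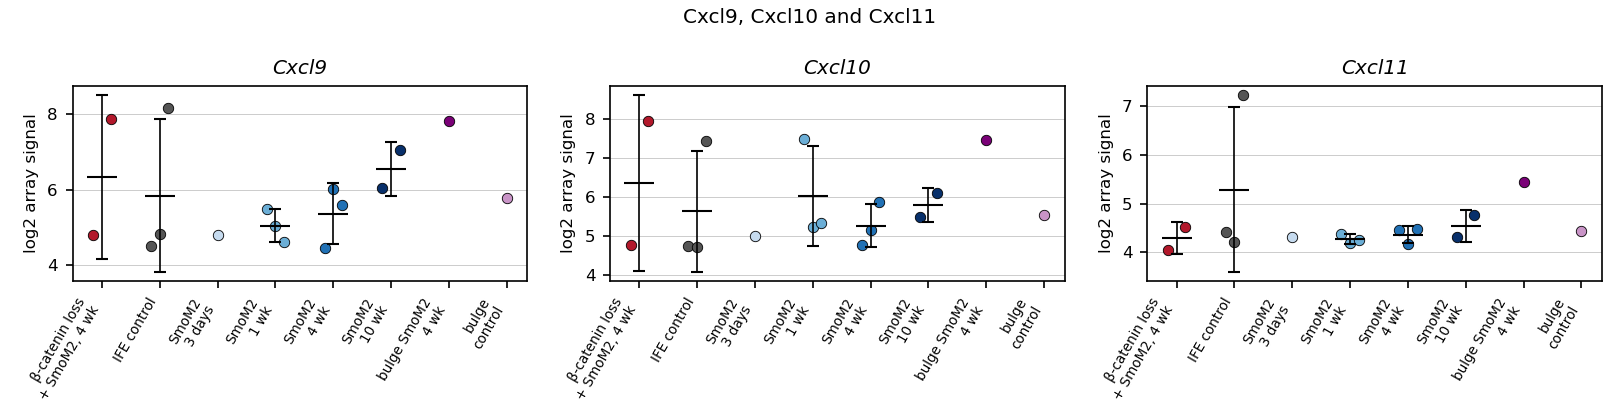
Log2 array signal (vertical axes) of Cxcl9, Cxcl10 and Cxcl11 in each array of the 8 groups; points are arrays, horizontal bars the mean and error bars the SD where a group has more than 1 array. A single control (8.16, 7.42 and 7.23) and, for Cxcl9 and Cxcl10, a single array of β-catenin loss (7.87 and 7.95) stand above the rest of their groups.

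The 2 membrane-tethered ligands were not called in any comparison. Cxcl16, the ligand of Cxcr6, had 8.35, 7.92 and 8.83 in IFE controls, 8.02 at 3 days, 7.91, 7.57 and 8.10 at 1 week, 6.90, 8.09 and 8.30 at 4 weeks, and 8.66 and 8.38 at 10 weeks. Both 10-week arrays lay above the 4-week arrays, a difference of 0.76 ± 0.42 (limma adjusted p = 0.821). Cx3cl1, or fractalkine, had 7.06, 6.94 and 7.02 in IFE controls, 6.58 at 3 days, 6.31 ± 0.32 (SD, n = 3) at 1 week, 5.73, 7.39 and 5.94 at 4 weeks, and 6.32 and 6.53 at 10 weeks. Only 4-week replicate 2 reached the control level among the time-course arrays. The 4-week difference was −0.65 ± 0.36 (adjusted p = 0.456), and without that array it was −1.17 and passed (adjusted p = 0.031, within a range of 0.031 to 0.742 over 18 alternatives). With β-catenin loss Cx3cl1 had 5.80 and 6.13, below all controls (difference −1.04 ± 0.40, adjusted p = 0.261). The other 3 Cx3cl1 probe sets differed from control by −0.41, 0.18 and −0.63 with β-catenin loss, and by −0.23, −0.02 and −0.28 at 4 weeks.

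Among the other CC ligands, Ccl1, which acts on Ccr8, had 7.27 and 6.73 at 10 weeks, against 5.69, 5.47 and 6.22 in IFE controls. Its difference of 1.21 ± 0.59 did not pass (limma adjusted p = 0.515). Ccl1 had 7.65 and 5.72 with β-catenin loss, against 4.98, 5.44 and 6.92 at 4 weeks. Ccl8, a ligand of Ccr8 in mice, had 7.27 in control replicate 3 and 5.43 and 5.88 in the other controls. It had 4.91 and 5.30 with β-catenin loss, both below the lowest control (difference −1.09 ± 0.48, adjusted p = 0.322). Ccl6, a ligand of Ccr1, was 5.50 at 3 days, against 4.51 to 4.71 in controls, a difference of 0.90 ± 0.23 in 1 array (adjusted p = 0.9999). The other Ccl6 probe set differed by 0.26, and the Ccl6 signals of all controls lay below the 40th percentile of their arrays. The atypical receptors Ackr1 and Ackr2, which bind inflammatory chemokines, lay between 5.33 and 6.94 and between 4.78 and 5.99 in the IFE arrays, with no call.

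In the bulge, with 1 array each, differences have no replicate check. Of 37 members 4 were at least 1 log2 unit higher and 4 at least 1 lower in bulge SmoM2 cells than in the library labelled bulge control, where 4.35% and 2.59% of all genes were. Cxcl2 had 7.43 in bulge SmoM2 cells against 4.45 in that library, Cxcl9 7.81 against 5.79, Cxcl10 7.45 against 5.53, and Cxcl1 8.77 against 7.44. Cxcl12 had 7.94 in bulge SmoM2 cells against 10.58 in that library, Cxcl14 10.84 against 12.40, Ccl27a 5.68 against 6.91 and Ackr3 9.25 against 10.40. Cxcr4 had 6.35 against 5.89. The library's own level of Cxcl12 was 3.97 above the mean of the IFE controls, that of Cxcl14 3.47 and that of Cxcr4 1.79, where 7.24% of genes were at least 1 log2 unit higher (4 of 37 members), 5.68% at least 1 lower (3 of 37) and 12.9% either. Cd34, a bulge marker, was 9.72 in it and 6.83 in bulge SmoM2 cells, against 3.65 to 5.63 in IFE arrays.

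Whether SmoM2 had a different effect in bulge and IFE cells at 4 weeks was tested as an interaction, with the single bulge arrays assumed to vary like the IFE arrays. limma called 0% of 14286 genes, with 1020 at an unadjusted p under 0.05, 4 of them members. The member of lowest p was Cxcl12, whose difference was lower in the bulge by −3.14 ± 1.22 (adjusted p = 0.518). With Gli1 at SmoM2 levels in the library labelled bulge control, these values compare 2 arrays that both had hedgehog target signal.

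Around the family, lists of genes that bind, present, cut or transmit chemokines were counted in the same fit. Over all genes, 3.24% were called at 4 weeks, 0.7% at 10 weeks and 2.23% with β-catenin loss relative to 4 weeks. Against control, 0.371% were called with β-catenin loss. The medians over all genes were −0.05 at 4 weeks, −0.09 for loss relative to 4 weeks and −0.12 for loss against control. Rises at 4 weeks and falls relative to 4 weeks share the 4-week arrays. Of 24 receptor signalling genes tested, Prex1, a Rac activator downstream of chemokine receptors, rose at 4 weeks by 2.20 ± 0.38 (limma adjusted p = 0.0191) and fell by 2.18 with β-catenin loss relative to 4 weeks (adjusted p = 0.032). The list's median difference was 0.23 at 4 weeks and −0.29 with β-catenin loss relative to 4 weeks. Of 18 genes of proteolysis and glycosaminoglycan presentation, the proteoglycan Sdc3 rose by 2.15 ± 0.35 at 4 weeks (adjusted p = 0.0121) and fell by 2.24 with β-catenin loss (adjusted p = 0.0223). Adam10, a protease that sheds Cxcl16 and Cx3cl1, fell by 1.10 there (adjusted p = 0.045). That list had medians of 0.19 and −0.38. Of 11 relatives of the family outside the symbol rule, Cmtm3 and Cmtm8, members of a chemokine-like factor family, rose by 1.45 and 1.82 at 4 weeks and fell by 1.23 and 1.62 with β-catenin loss relative to 4 weeks. Cmtm3 also rose by 1.85 at 10 weeks. Of 23 genes of NF-kB signalling and its inducers, 0 were called at 4 weeks by limma, and Ifngr1, a chain of the interferon gamma receptor, rose by 2.31 ± 0.50 with β-catenin loss (adjusted p = 0.0414). The median of that list was −0.09 there and 0.17 against control, where limma called 0 of 23.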

How the data were processed

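The authors deposited 1 table of log2 signals for 45101 probe sets in 16 arrays. Per the labels' protocols, a 3′ IVT express kit amplified and labelled total RNA. R 2.14.0 is named in the submitters' processing notes. How background, normalization and probe set summary were done is not given in the sources used here. Array medians lay between 5.38 and 5.53. Of the probe sets, 34958 had 1 gene, 932 several and 9211 none.

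No further normalization was applied. limma 3.58.1 in R 4.3.3 fitted group means over the 14 IFE arrays (11.6 total degrees of freedom), also for the group of 1 array, which was assumed to vary like the others. Each fit used 1 probe set per gene. The fit was tested on simulated data. There it called 54% of changes of 1 log2 unit at 4 weeks, 32% at 10 weeks and 8% at 3 days. For β-catenin loss it called 36% of them against control and 34% against 4 weeks. Of changes of 2 log2 units it called 68% to 94%, depending on the comparison.

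Members, lists and tests were chosen with earlier results of these data known. Described array by array were members called, the 10 of highest mean, the 3 largest rises and falls per comparison and a set of skin genes. Ccl25, Ccl5, Cxcr3, Cxcl3, Cxcl5 and Cxcl15 met no part of this rule and were described in addition to it. Samples of the same number deviated together among control, 1 week and 4 weeks (correlations 0.34 to 0.70 over 9 pairs), and not in 8 pairs with 10 weeks or β-catenin loss (−0.18 to 0.12), so the numbers were taken to pair only the first. Alternatives varied normalization, filter, probe set, block, arrays, weights and left-out arrays.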

Additional observations from a re-analysis of the deposited data

Results flagged for a closer look

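Cxcl1 at 4 weeks differed from the shared IFE controls by 1.98 in cells with SmoM2 and β-catenin loss and by −0.15 in cells with SmoM2 alone. The difference of 2.13 between these (limma adjusted p = 0.0204) is the comparison of β-catenin loss with 4 weeks. No group had lost β-catenin without SmoM2. Without loss replicate 1 it was 1.61 and did not pass (adjusted p = 0.205, within a range of 0.0118 to 0.205 over the alternatives). Both arrays of β-catenin loss lay above all 3 SmoM2 arrays at 4 weeks. No group of 4 or more arrays was available to look for single arrays far from their group.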

How the results depend on the processing

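Across 58 tested member differences, 936 of 980 alternative values kept direction and side of the threshold. The 4-week count of 0 members became 1 with median centring, and 2 with the replicate block by either numbering (Cxcr4 and Ccl28). It was 0 to 1 when arrays were left out. The 10-week count of 1 became 2 with only the groups compared, 3 with array weights, and 0 in every fit that left out an array. The count for β-catenin loss against control, 1, became 0 without the filter, with probe sets of highest variance, with only the groups compared and with Y-linked signal as a covariate, and 0 to 1 with arrays left out. Against 4 weeks, 1 became 2 with probe sets of highest variance, 3 or 2 with the replicate block (title or experiment numbers; the samples share only a number there), 0 with only the groups compared, and 0 to 2 with arrays left out. In 12 alternatives every array of the groups compared was kept, though some of these fits dropped arrays of other groups. Over them the number of genes called ran from 320 to 873 at 4 weeks (463) and 59 to 1545 at 10 weeks (100). It ran from 11 to 169 for loss against control (53) and 17 to 1347 against 4 weeks (318). The count of 17 came from the fit with only the groups compared. The causes were not tested.

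Some values turned sign. Without control replicate 3, Cxcl11 was 0.0035 at 3 days, 0.0496 at 4 weeks and 0.23 at 10 weeks, and Cxcl9 0.12 at 3 days and 0.36 at 1 week; without other arrays they went down to −1.51, −1.46, −1.28, −1.69 and −1.45. Cxcl10 at 1 week, 0.38 in the main analysis, was −0.028 with array weights and −0.35 (without 1-week replicate 1) to 1.28 with arrays left out. Without 4-week replicate 2 Ackr3 at 4 weeks was 0.0952 (lowest −1.12), and without loss replicate 1 Ccl2 against 4 weeks was −0.28 (highest 2.62). Between 4 weeks and 1 week, Cxcl2 was −0.0588 without 4-week replicate 3 (highest 1.30) and Cxcr4 −0.0056 without 1-week replicate 3 (highest 1.04). Cxcl1 between 10 and 4 weeks was 0.20 with the probe set of highest variance. Members below the 40th percentile, such as Cxcr4 in controls, have signals close to background, which limits how small a change can be seen.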

Other observations

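Probe sets shared between family genes gave further values. The Ccl21 probe set, which reads Ccl21a, Ccl21b, Ccl21c and Ccl21d together and so a ligand of Ccr7 on dendritic cells, had 8.50 in IFE control replicate 3, 6.30 and 6.73 in the other controls, and 7.12 in 4-week replicate 3. It lay between 5.24 and 6.01 in the other IFE SmoM2 arrays and at 5.73 and 5.42 with β-catenin loss. The probe set of Ccl19, the other Ccr7 ligand, had 5.33 to 6.42 in the IFE arrays, and Ccr7 itself 4.13 to 4.63. One probe set shared by Ccl27a and Ccl27b had 11.06 and 10.69 at 10 weeks, against 8.02, 8.71 and 10.45 in IFE controls.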
